A study of Mus musculus with 6 samples.

Results

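The 10 genes of late neutrophil maturation described here are Mmp8, Mmp9, Retnlg, Wfdc21, Padi4, Cxcr2, Csf3r, Ltb4r1, Mrgpra2b and Ly6g. They were chosen by name, with earlier results of these data known. The rows of the deposited table were taken by GENCODE M21 symbol, and all 10 were found among 24906 listed genes. RNA was sequenced from spleen cells of 6 C57BL/6J mice, 1 library per mouse. The D3TA group held 3 mice aged 12 to 16 months carrying an edit of Ccnd3 made by CRISPR/Cas9, a knock-in by which residue 283 of cyclin D3 is alanine in place of threonine. The WT group held 3 wild-type mice of matching age. The knock-in line was kept in the heterozygous state, and the labels do not say whether each sampled D3TA mouse carried 1 or both copies. At this age the line shows severe signs of myeloproliferative neoplasm, an overgrowth of myeloid cells, per the series record. The labels name spleen cells and no sort for neutrophils, so each value is read as a level over mixed spleen cells.

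Neutrophils build their granules in waves as they mature. The primary granules, with myeloperoxidase and serine proteases, are filled in promyelocytes, the specific granules, with lactoferrin, in myelocytes, and the gelatinase granules, with matrix metalloproteinase 9, in later forms with a band-shaped nucleus. The receptors that let the cell leave the marrow and follow chemical gradients, such as Cxcr2 and the leukotriene B4 receptor, come up at the same late stages. In mice the spleen can make myeloid cells itself, and it does so more when the marrow is diseased.

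Promoter sequences are shown for the 4 members in which a match to the C/EBP or PU.1 motif was found, since C/EBP factors and PU.1 are known to drive granulocyte genes. They are RefSeq windows on GRCm38.p6, each reaching from 250 bases before the annotated start to 50 bases after it, and capitals mark the motif matches. Ly6g has 2 annotated starts, and the window of the first is shown. Of the 10, 8 had such a window, and Mmp9 and Wfdc21 were not among them. The motifs were TTGCNNAA or TTNNGCAA for C/EBP, GAGGAAGT or ACTTCCTC for PU.1, TGTGGT or ACCACA for RUNX, and AGATAA or TTATCT for GATA, where the second form is the same motif on the other strand.
Mmp8 promoter, chr9:7558179-7558478, plus strand: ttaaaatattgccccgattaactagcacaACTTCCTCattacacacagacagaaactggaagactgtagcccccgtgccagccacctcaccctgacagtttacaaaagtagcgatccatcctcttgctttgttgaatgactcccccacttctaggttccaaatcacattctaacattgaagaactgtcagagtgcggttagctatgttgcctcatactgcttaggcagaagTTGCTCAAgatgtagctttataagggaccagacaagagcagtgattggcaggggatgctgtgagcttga
Retnlg promoter, chr16:48872358-48872657, plus strand: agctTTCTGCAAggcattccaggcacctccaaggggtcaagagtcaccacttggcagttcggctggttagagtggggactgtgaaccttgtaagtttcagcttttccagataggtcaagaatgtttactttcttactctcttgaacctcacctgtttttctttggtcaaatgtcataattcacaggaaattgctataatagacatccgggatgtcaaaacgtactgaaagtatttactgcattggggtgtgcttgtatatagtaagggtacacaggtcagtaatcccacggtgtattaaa
Ltb4r1 promoter, chr14:55765712-55766011, plus strand: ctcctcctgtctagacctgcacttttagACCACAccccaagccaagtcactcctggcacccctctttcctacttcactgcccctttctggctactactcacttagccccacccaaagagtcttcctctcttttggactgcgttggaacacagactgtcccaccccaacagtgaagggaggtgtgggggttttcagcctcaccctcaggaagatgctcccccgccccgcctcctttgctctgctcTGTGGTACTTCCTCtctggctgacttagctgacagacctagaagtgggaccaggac
Ly6g promoter, chr15:75155011-75155310, plus strand: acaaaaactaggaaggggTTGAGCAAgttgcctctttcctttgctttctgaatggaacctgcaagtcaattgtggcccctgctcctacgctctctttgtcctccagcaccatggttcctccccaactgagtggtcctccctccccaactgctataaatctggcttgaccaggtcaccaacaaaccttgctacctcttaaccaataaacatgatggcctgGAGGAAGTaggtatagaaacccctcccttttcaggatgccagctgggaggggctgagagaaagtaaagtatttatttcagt
The C/EBP letters stood in the windows of Mmp8, Retnlg and Ly6g, 3 of 8 members, and in 12.2% of 27025 genes with a window. The PU.1 letters stood in those of Mmp8, Ltb4r1 and Ly6g, 3 of 8 members, against 3.69% of genes. In Mmp8 the C/EBP match began at base -19 from the start site, and in Ly6g the PU.1 match began at base -31. The Ltb4r1 window held 2 RUNX matches, one of which ran directly into the PU.1 match without overlap, and it was the only member window with the RUNX letters, found in 18.9% of genes. The GATA letters were in none of the 8 members and in 12.7% of genes. These are matches of letters in a window and were not tested against binding.

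All values below are normalized read counts, that is, read counts that had been divided by a size factor for each library. The 6 libraries held 14944622 to 19456838 reads assigned to genes, and 3 reads, the limit that a count of 0 allows, correspond to a normalized count of 2.59 to 3.36. Differences were taken as the D3TA mean minus the WT mean of log2(normalized count + 1), with limma's standard error (SE) and Benjamini-Hochberg adjustment over 15564 tested genes. Some libraries stood apart for other reasons. WT-2 listed 8449 genes at 0, against a median of 4093 in the other 5 libraries, and 30 genes were at 0 in WT-2 but at 50 or more in both WT-1 and WT-3. Hemoglobin transcripts took 6.39% and 6.76% of reads in D3TA-1 and D3TA-2 and 6.57% in WT-3, but 1.40% to 1.91% in the other 3 libraries. D3TA-3 and WT-1 carried transcripts of 4 Y-linked genes, summing to 2355 and 2628, and the other 4 libraries summed to at most 20.1. The edited gene Ccnd3 differed by 0.51 ± 0.41 (SE, log2, adjusted p = 0.713 by limma), and its level does not check the amino acid change.

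All 10 genes had higher mean levels in D3TA spleens than in WT spleens. Together they took 0.114%, 0.0873% and 0.0247% of reads in D3TA-1, D3TA-2 and D3TA-3, against 0.0119%, 0.00599% and 0.0108% in WT-1, WT-2 and WT-3. In 8 of the 10 each D3TA library lay above each WT library, which held for 8.18% of all tested genes (6.84% had each D3TA library below each WT library), and the exceptions were Retnlg and Cxcr2. None of the 10 passed limma's adjusted threshold of 0.05, and 0% of all tested genes did, the smallest adjusted p over all genes being 0.0945. At an unadjusted p under 0.05 all 10 were higher in D3TA, against 6.08% of tested genes that were higher and 3.83% that were lower. Mrgpra2b, which passed the filter through its D3TA libraries, is included in both counts, that of 8 and that of 10. The count of 10 fell to 8 without D3TA-1 (Mmp8 and Cxcr2 no longer counted) and to 8 without both D3TA-1 and WT-2. It was 9 without D3TA-3, WT-2 or WT-3, with no filter or with a term for the hemoglobin share. Over all genes, in either direction, 1542 of 15564 had such a p in the limma fit. Their number was 767 without D3TA-1, 706 without both, 2295 without D3TA-3, 1152 without WT-2 and 1584 without WT-3. With the hemoglobin term it was 1461, and with no filter 2373 of 24906. The median difference of the 10 was 2.82 on the log2 scale, and that of all tested genes was 0.06. All 10 differences lay above 0, as did 54.5% of those of all tested genes. Because the 10 were chosen with earlier results of these data known, these counts and shares are a description. They are not an independent check. In these bulk samples more cells of a type and more RNA per cell cannot be told apart. Leaving out D3TA-3, the D3TA library lowest in all 10 genes, put 8 of the 10 past the adjusted threshold, beside 1.59% of all genes called higher and 0.373% called lower. DESeq2 on recovered reads called 6 of the 10, beside 1.83% of genes called higher and 0.705% called lower. With a term for Y-linked reads in the limma fit 2 of the 10 passed, Wfdc21 and Ly6g, beside 0.0835% of genes called higher and 0.0129% lower. With a term for the hemoglobin share 0 of the 10 passed, beside 0.0643% higher and 0.00643% lower.

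**Figure D1:**
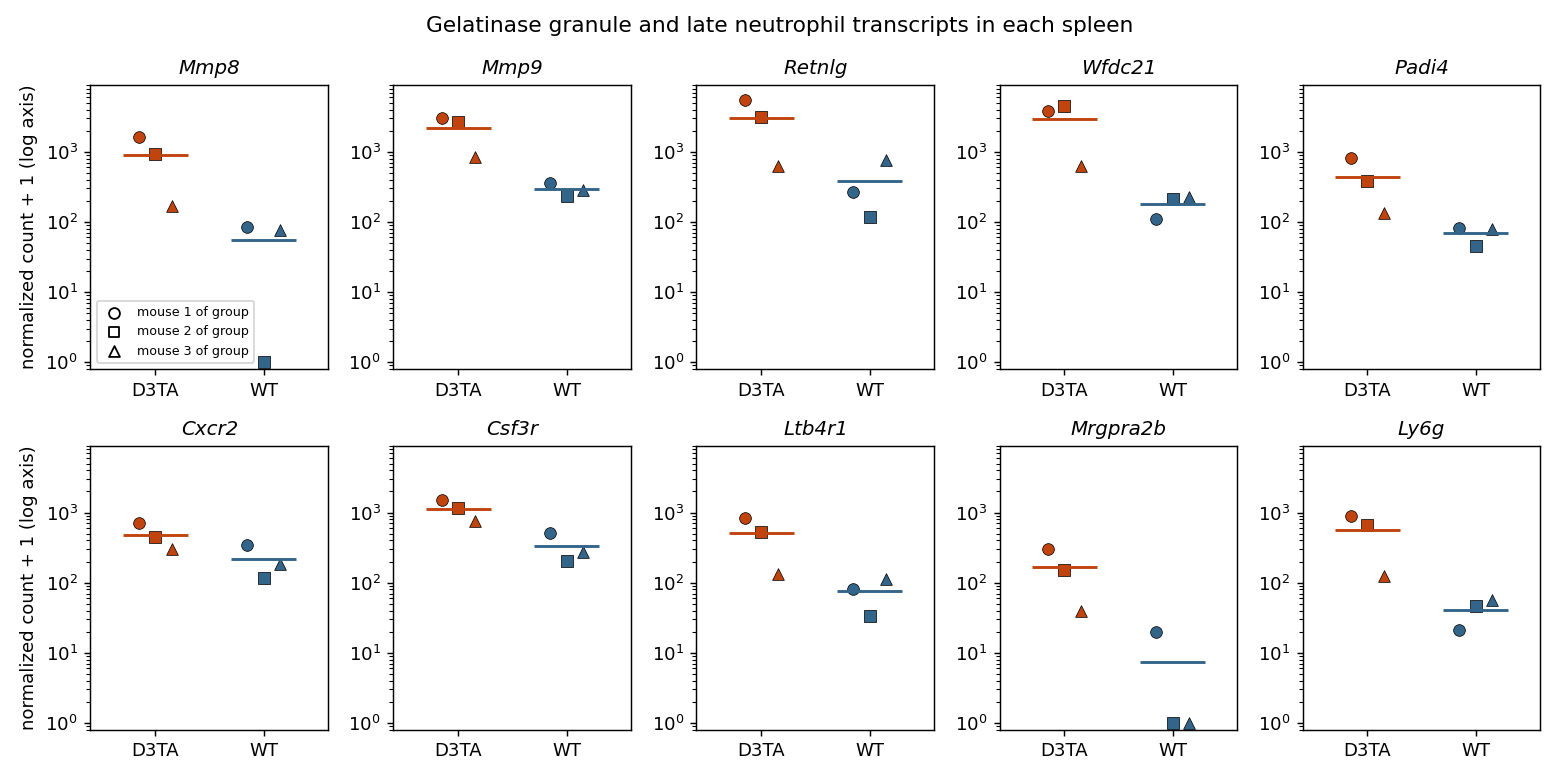
Normalized read count of each of the 10 genes in each library, plotted as count + 1 on a log axis, with D3TA left of WT and a bar at each group mean. D3TA-3 is the lowest of the D3TA points in every panel, and the groups overlap only for Retnlg and Cxcr2.

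Mmp8 is the neutrophil collagenase, which cuts fibrillar collagen (chr9:7558456-7568485, plus strand, GRCm38). Its level was 1617, 928 and 169 in D3TA-1, D3TA-2 and D3TA-3, against 85.0, 0 and 76.4 in WT-1, WT-2 and WT-3. Each D3TA library lay above each WT library, by the narrowest margin in D3TA-3, and WT-2 had no read. The means were 905 ± 724 in D3TA and 53.8 ± 46.8 in WT (n = 3 each, ± SD), a 16.8-fold ratio, with a log2 difference of 5.08 ± 1.55 (SE, adjusted p = 0.344 by limma). Without WT-2 the log2 difference was 2.96. Mmp8 was 1 of the 30 genes at 0 in WT-2 alone, so this 0 is given as listed.

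Mmp9, gelatinase B, is the enzyme that gave the gelatinase granule its name (chr2:164940780-164955850, plus strand). Its level was 3038, 2624 and 833 in D3TA, against 363, 231 and 281 in WT. The WT libraries lay close together, and the lowest D3TA library was 2.30 times the highest WT library. The log2 difference was 2.71 ± 0.46 (SE, adjusted p = 0.0945 by limma), with a 95% interval of 1.68 to 3.74. Among matrix metalloproteinases and their inhibitors at large, 16 tested genes beside Mmp8 and Mmp9, the median difference was 0.11. At an unadjusted p under 0.05, 1 of the 16 was higher and 1 lower, against 6.08% and 3.83% of all tested genes. The higher one was Mmp3, stromelysin 1, at 418, 135 and 354 in D3TA and 96.5, 115 and 157 in WT. The lower one was Mmp12, the macrophage elastase, at 0, 7.07 and 25.1 in D3TA and 26.7, 114 and 83.1 in WT. Mmp12 passed the filter through its WT libraries, and the size of its difference rests in part on the added 1.

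Padi4 encodes the deiminase that turns histone arginine into citrulline, a step in the release of neutrophil extracellular traps (chr4:140745865-140774236, minus strand). It was at 804, 387 and 132 in D3TA, against 82.1, 44.8 and 78.3 in WT, without overlap. The means were 441 ± 339 in D3TA and 68.4 ± 20.6 in WT (n = 3 each, ± SD), and the log2 difference was 2.37 ± 0.61 (SE, adjusted p = 0.246 by limma). Of the other deiminases, Padi2, the form found in many tissues, averaged 272 ± 69.3 in D3TA and 304 ± 79.8 in WT (n = 3 each, ± SD), with overlapping libraries. Padi3, known from hair follicles, reached a normalized count of at most 19.2.

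Retnlg encodes resistin-like gamma, a small secreted protein made in mouse marrow and neutrophils (chr16:48872621-48874496, plus strand). Its level was 5403, 3177 and 617 in D3TA, against 268, 118 and 754 in WT. The groups overlapped, because WT-3 lay above D3TA-3. The difference was 2.93 ± 0.80 (SE, log2, adjusted p = 0.278 by limma). The other tested resistin-like genes were low, with Retnla, a product of alternatively activated macrophages, at 1.07, 0 and 32.8 in D3TA and 15.3, 64.9 and 20.3 in WT. Retn, the adipocyte hormone resistin, reached at most 14.5 in any library.

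Wfdc21 encodes a small secreted protein with a whey acidic protein (WAP) domain (chr11:83746940-83752642, plus strand). It was at 3814, 4470.4 and 632 in D3TA, against 108, 208 and 227 in WT. It was the 1 member in which D3TA-2, not D3TA-1, was highest, and the lowest D3TA library was 2.78 times the highest WT library, the widest gap of the 10. The means were 2972 ± 2053 in D3TA and 181 ± 64.0 in WT (n = 3 each, ± SD), with a log2 difference of 3.67 ± 0.65 (SE, adjusted p = 0.0977 by limma). Of 4 other tested genes with WAP domains, 2 lay above 0 and 2 below, and none had an unadjusted p under 0.05. Wfdc1 was at 11.8, 16.2 and 36.3 in D3TA and 35.3, 79.5 and 51.2 in WT, and Wfdc3 was at 50.3, 32.3 and 4.32 in D3TA and 3.82, 0 and 19.3 in WT.

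Csf3r is the receptor for granulocyte colony-stimulating factor, the main growth signal of the lineage (chr4:126024550-126044440, plus strand). Its level was 1502, 1165 and 749 in D3TA, against 518, 206 and 269.6 in WT, without overlap. The means were 1138 ± 377 in D3TA and 331 ± 165 in WT (n = 3 each, ± SD), a 3.44-fold ratio, and the log2 difference was 1.83 ± 0.40 (SE, adjusted p = 0.202 by limma). D3TA-1 exceeded D3TA-3 by 2.01 times in Csf3r, the smallest such gap of the 10, against 9.55 times in Mmp8.

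Cxcr2 is the receptor for chemokines such as Cxcl1 and Cxcl2, which draws mature neutrophils out of the marrow (chr1:74153989-74161246, plus strand). It was at 709, 440.4 and 303 in D3TA, against 340.1, 116 and 187 in WT. The groups overlapped, because WT-1 lay above D3TA-3. Cxcr2 had the smallest difference of the 10, at 1.22 ± 0.46 (SE, log2, adjusted p = 0.424 by limma), with a 95% interval of 0.20 to 2.24. Of the listed ligands of Cxcr2 and Csf3r, the 4 tested were all ligands of Cxcr2, and none had an unadjusted p under 0.05. Ppbp, a platelet chemokine, was at 3018, 2036 and 1913 in D3TA and 1704, 1103 and 1657 in WT. Cxcl1 was at 1.07, 4.04 and 7.78 in D3TA and 10.5, 67.1 and 10.6 in WT, and Cxcl2, named after its values were seen and too low to be tested, reached at most 3.87. Csf3 and Cxcl15 were not analysed here, so nothing is said of a ligand of Csf3r.

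Ltb4r1 encodes BLT1, the high-affinity receptor for the attractant leukotriene B4 (chr14:55765962-55768494, plus strand). Its level was 847, 525 and 134 in D3TA, against 80.2, 32.5 and 112 in WT. The groups did not overlap, but D3TA-3 was close to WT-3. The log2 difference was 2.54 ± 0.68 (SE, adjusted p = 0.275 by limma). Of 6 tested genes that make or break down leukotriene B4, 2 were higher and 1 lower at an unadjusted p under 0.05. The shares of all tested genes were 6.08% higher and 3.83% lower. Alox5, the lipoxygenase that starts leukotriene synthesis, was at 547, 369.7 and 112 in D3TA and 50.6, 35.8 and 46.4 in WT. Its partner Alox5ap was at 2047, 1297 and 716 in D3TA and 425, 402 and 721 in WT, so that WT-3 and D3TA-3 met. The lower one, named after its values were seen, was Cyp4f18, which inactivates leukotriene B4 in mouse neutrophils, at 883, 1061 and 597 in D3TA and 1086, 1503 and 1625 in WT.

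Ly6g is the surface protein by which mouse neutrophils are usually recognised with antibodies (chr15:75155240-75159126, plus strand). It was at 899, 665 and 124 in D3TA, against 20.1, 45.9 and 55.1 in WT. All 3 D3TA libraries lay above all 3 WT libraries, the lowest D3TA value being 2.24 times the highest WT value. The means were 562 ± 398 in D3TA and 40.3 ± 18.2 in WT (n = 3 each, ± SD), with a log2 difference of 3.47 ± 0.71 (SE, adjusted p = 0.163 by limma). The other Ly6 genes had a median difference of 0.01 over 9 tested. Ly6c2, the Ly6C antigen of inflammatory monocytes, averaged 4537 ± 899 in D3TA and 1927 ± 478 in WT (n = 3 each, ± SD), with no overlap. Ly6d, known from B cell progenitors, averaged 3805 ± 2312 in D3TA and 11079 ± 2548 in WT (n = 3 each, ± SD), in the other direction.

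Mrgpra2b encodes a Mas-related G protein-coupled receptor (chr7:47463806-47528862, minus strand). It was at 305, 148 and 38.9 in D3TA, against 19.1, 0 and 0 in WT. Each D3TA library lay above each WT library, and WT-2 and WT-3 held no read. The log2 difference of 5.49 ± 1.27 (SE, adjusted p = 0.217 by limma) depends on the value added before the log, and the ratio of means was 25.8. The gene passed the filter of at least 10 in at least 3 libraries through the D3TA libraries. Its close copy Mrgpra2a, named after its values were seen, was at 57.8, 28.3 and 4.32 in D3TA and 2.87, 0 and 0 in WT. The coding sequences of both, 993 bases in GENCODE M21, differed at 2 positions, counted from the start codon, and these stretches show them with the differing base in capitals.
Mrgpra2b, coding bases 331 to 371: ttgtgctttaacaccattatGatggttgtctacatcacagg
Mrgpra2a, coding bases 331 to 371: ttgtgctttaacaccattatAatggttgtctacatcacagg
Mrgpra2b, coding bases 870 to 910: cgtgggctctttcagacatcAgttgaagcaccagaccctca
Mrgpra2a, coding bases 870 to 910: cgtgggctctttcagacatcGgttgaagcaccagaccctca
Of all 100-base windows of Mrgpra2b transcripts, 68.2% occurred in transcripts of another gene too, so the split of reads between both copies is uncertain. The sum of both genes, which does not depend on the split, was 363, 177 and 43.2 in D3TA and 21.97, 0 and 0 in WT. The promoter windows of both genes were the same in 300 of 300 bases. Among the other 9 members, Csf3r shared 0.376% of such windows with other genes and the remaining 8 shared 0%. The only other Mas-related receptors with enough reads to test were Mrgpre and Mrgprf, and Mrgpre averaged 79.9 ± 33.8 in D3TA and 182 ± 44.4 in WT (n = 3 each, ± SD).

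**Figure D2:**
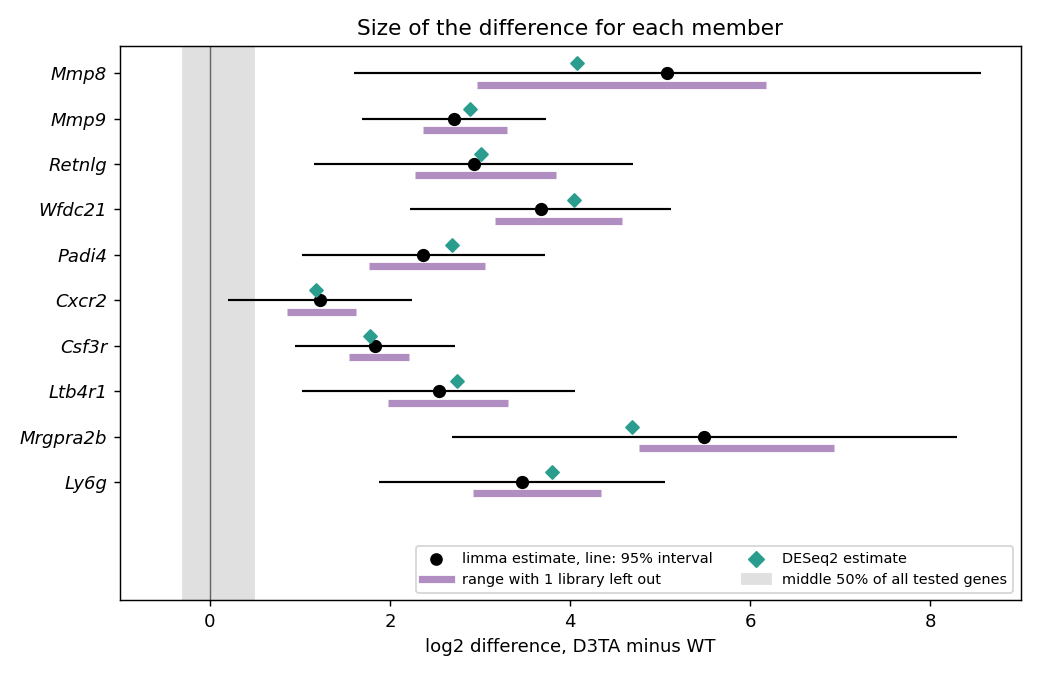
log2 difference, D3TA minus WT, of each of the 10 genes by limma with its 95% interval (black), the range with 1 library left out (purple) and the DESeq2 estimate (green), over the middle 50% of all tested genes (grey band). Each point lies right of 0, from 1.22 for Cxcr2 to 5.49 for Mrgpra2b, and the intervals of Mmp8 and Mrgpra2b are the widest.

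The D3TA libraries kept nearly the same order across the genes. D3TA-1 was highest and D3TA-3 lowest in 9 of the 10, and D3TA-3 was lowest in all 10. Relative to the WT mean, D3TA-1 stood 3.31 to 47.9 times higher with a median of 12.99, D3TA-2 stood 2.05 to 24.7 times higher with a median of 8.68, and D3TA-3 stood 1.42 to 6.11 times higher with a median of 2.56. Among WT libraries WT-2 alone was lowest in 7 of the 10, and it shared the 0 of Mrgpra2b with WT-3. These ranks share their libraries and are 1 pattern seen in 10 genes, not 10 separate observations. Over the 6 libraries the log2 values of each member followed the mean standardized profile of the 10, with Pearson's r between 0.915 for Mmp8 and 0.989 for Padi4. Among all other tested genes the profiles most like that mean were those of Hk3, a hexokinase of myeloid cells (r = 0.996), Lcn2, the specific granule protein lipocalin 2 (r = 0.996), Adgrg3, an adhesion receptor of granulocytes (r = 0.994), Xrcc3, a DNA repair gene (r = 0.994), and Cd177, a neutrophil surface protein (r = 0.992). Each r is a description over 6 libraries that share the difference between groups.

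Levels of different genes were compared per kilobase of annotated exons. In D3TA the order began with Wfdc21 at 6848 ± 4731 and Retnlg at 5169 ± 4038, followed by Mmp9 at 612 ± 331, normalized counts per kilobase (SD, n = 3). Ly6g, Mmp8, Ltb4r1, Csf3r, Cxcr2 and Mrgpra2b came next, and Padi4 was last at 91.2 ± 70.2. In WT the order began with Retnlg at 641 ± 561 and Wfdc21 at 417 ± 148, then Csf3r at 91.7 ± 45.6 and Mmp9 at 82.4 ± 18.9, and ended with Padi4 at 14.1 ± 4.25 and Mrgpra2b at 4.77 ± 8.27 (SD, n = 3). Per kilobase, both Wfdc21 and Retnlg lay above the other 8 genes in each of the 6 libraries. This depends on their exon lengths, 434 and 593 bases, the shortest of the 10. Before division by length, Mmp9 (833) and Csf3r (749) lay above Wfdc21 (632) and Retnlg (617) in D3TA-3. Padi4 has the longest annotated exons, 4835 bases, while its longest transcript has 3021, so its rank may depend on the length used. Neighbours in the D3TA order differed by more than the larger of their SDs only between Retnlg and Mmp9 and between Csf3r and Cxcr2. In the WT order this held between Wfdc21 and Csf3r, Ly6g and Mmp8, and Padi4 and Mrgpra2b. The gap between Ly6g and Mmp8 includes the 0 of Mmp8 in WT-2, and in WT-1 Mmp8 (35.1) lay above Ly6g (21.3). Among WT libraries Mrgpra2b had reads in WT-1 only, and its split from Mrgpra2a is uncertain. These gaps are set against the spread between libraries and do not compare genes library by library.

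Ratios of genes within a library depend little on the scaling between libraries where both genes are far above 0. They were computed for 4 pairs, as log2((a + 1)/(b + 1)), and compared by exact 2-sided permutation tests over the 6 libraries, which cannot go below p = 0.1. Csf3r to Cxcr2 was 1.08, 1.40 and 1.30 in D3TA and 0.60, 0.82 and 0.53 in WT, and it was higher in each D3TA library than in each WT library (difference 0.61, exact p = 0.1, adjusted p = 0.2). Cxcr2 to Mpo, a late receptor over the myeloperoxidase of primary granules, was -4.45, -4.25 and -3.01 in D3TA and 0.09, -1.51 and -0.83 in WT. It was lower in each D3TA library, by a mean of -3.15 (exact p = 0.1, adjusted p = 0.2). Retnlg to Ngp, a specific granule protein, was -3.63, -3.44 and -4.00 in D3TA and -2.90, -3.46 and -1.60 in WT, with overlap (difference -1.03, exact p = 0.2, adjusted p = 0.267), and the difference was -0.51 without WT-3. Mmp8 to Mmp9 was -0.91, -1.50 and -2.29 in D3TA and -2.08, -7.86 and -1.87 in WT, and the groups overlapped (difference 2.37, exact p = 0.3). With Mmp8 at 0 in WT-2, that value is set by the added 1, and the difference was 1.58 with 5 added and 0.41 without WT-2. None of the 4 passed after adjustment.

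**Figure D3:**
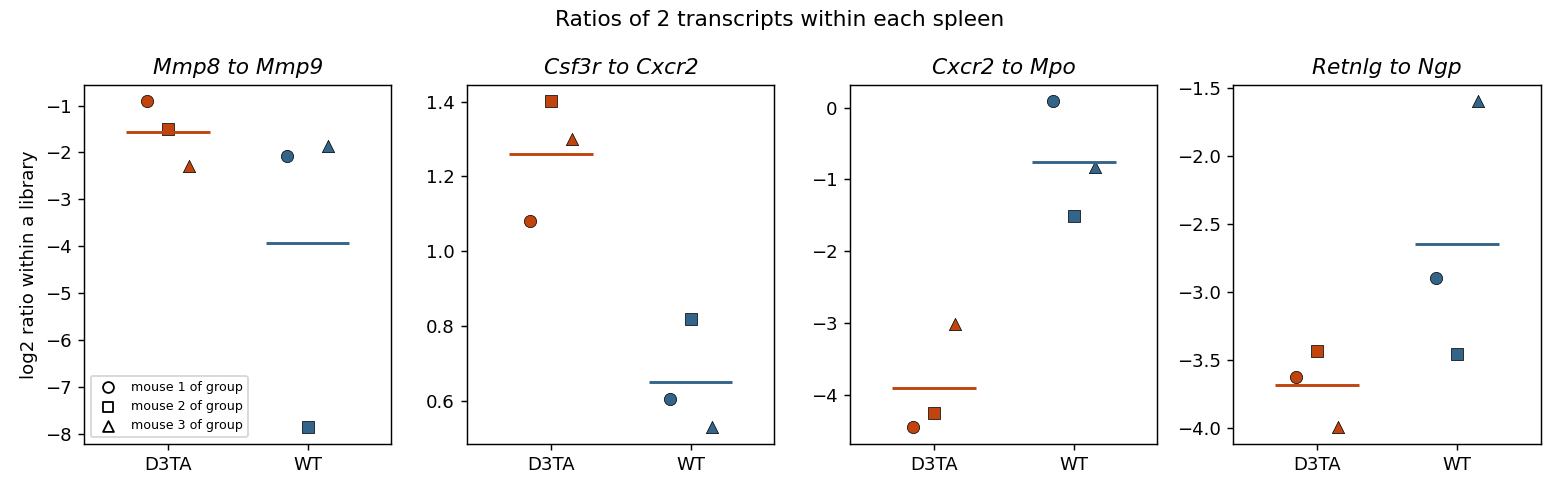
Within-library log2 ratios of 4 gene pairs, with D3TA points left of WT points and a bar at each group mean. The groups are apart for Csf3r to Cxcr2 (higher in D3TA) and Cxcr2 to Mpo (lower in D3TA) and overlap for the other 2 pairs.

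Genes of the earlier granules were also at higher mean levels in D3TA spleens. All 6 tested primary granule genes lay above 0 with a median difference of 3.58 on the log2 scale, and 6 had an unadjusted p under 0.05. Over all tested genes 54.5% lay above 0, and 6.08% were higher at such a p. Mpo was at 15516, 8392 and 2457 in D3TA and 320.0, 334 and 332 in WT. Elane, neutrophil elastase, averaged 4918 ± 3575 in D3TA and 276 ± 116 in WT (n = 3 each, ± SD). Of 8 specific granule genes 8 lay above 0, with a median of 3.86, and 7 had an unadjusted p under 0.05. Ngp averaged 37016 ± 28559 in D3TA and 1865 ± 508 in WT, and Ltf, lactoferrin, averaged 19414 ± 15282 in D3TA and 817 ± 197 in WT (n = 3 each, ± SD). None of these passed the adjusted threshold, and the difference between the lists and the 10 genes was not tested.

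Other genes of gelatinase granules, secretory vesicles and adhesion had a median difference of 1.51 over 16 tested, with 9 higher and 1 lower at an unadjusted p under 0.05. Fpr2, a receptor for formylated peptides, was at 937, 571 and 287 in D3TA and 107, 73.9 and 110.2 in WT. Adgrg3 was at 718, 358 and 116 in D3TA and 41.1, 10.1 and 23.2 in WT. Of 28 other late neutrophil genes tested, 18 were higher and 0 lower at an unadjusted p under 0.05, with a median of 1.202. The counts of both lists stand beside 6.08% higher and 3.83% lower over all tested genes. Trem3, an activating receptor of myeloid cells, was at 1084, 894 and 306 in D3TA and 68.8, 96.2 and 128.5 in WT. Il1r2, the decoy receptor for interleukin 1, was at 320.3, 695 and 616 in D3TA and 143, 139 and 81.2 in WT, and here D3TA-1 was the lowest of the D3TA libraries. Of the 28, 5 lay below 0, named after their values were seen: Cxcr4, the receptor that keeps neutrophils in the marrow (-0.01), Ifitm1 (-0.03), Slpi (-0.04), Asprv1 (-0.04) and G0s2 (-0.36), on the log2 scale.

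Of 11 transcription factors of neutrophil maturation, 3 were higher and 1 lower at an unadjusted p under 0.05, and the median difference was 0.07. Among all tested genes 6.08% were higher and 3.83% lower at that threshold. Cebpe, which drives the step to specific granules, was at 1867, 1234 and 217 in D3TA and 48.7, 0 and 129.5 in WT, with the 0 in WT-2. Klf2, a factor also high in resting lymphocytes, was at 2093, 3042 and 2287 in D3TA and 4621, 5741 and 5915 in WT.

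**Figure D4:**
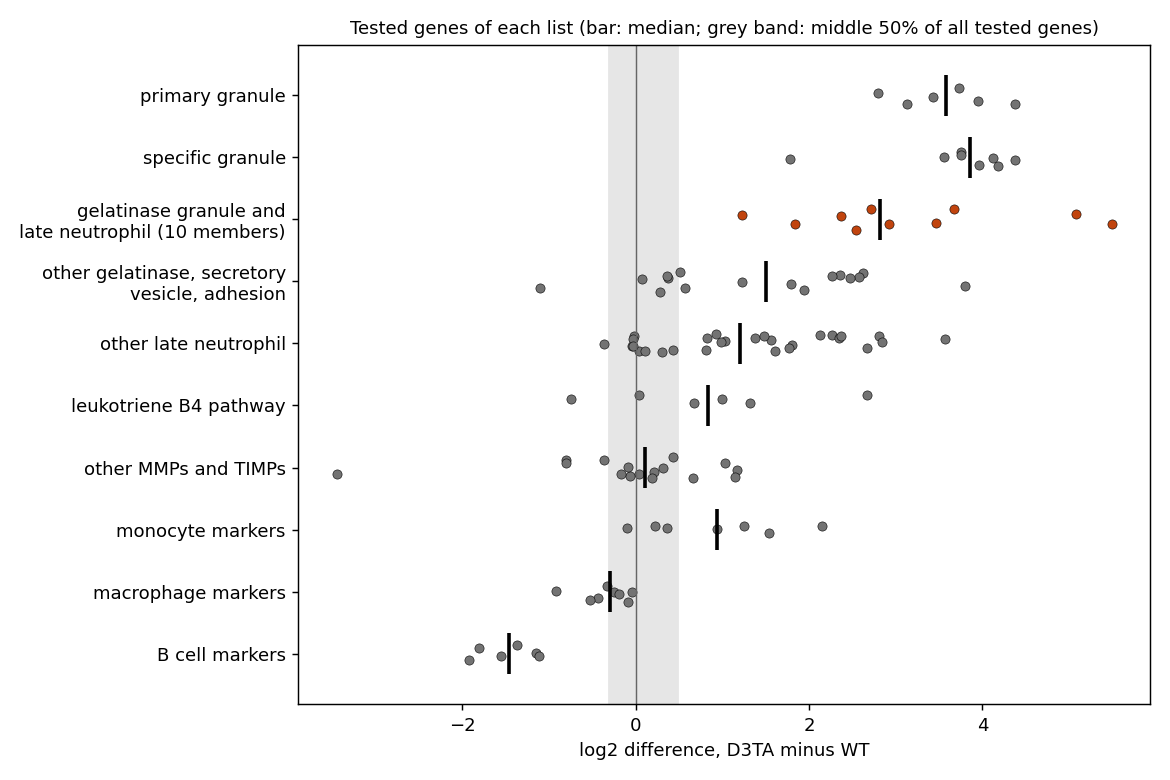
log2 difference, D3TA minus WT, of each tested gene in 10 lists of granule, late neutrophil, enzyme and cell type genes, with the list's median as a bar. The 10 genes have a median of 2.82, between the primary and specific granule lists (3.58 and 3.86) and the other gelatinase (1.51) and late neutrophil (1.202) lists.

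Summed levels of marker genes of other spleen cells are given beside these values, and no marker passed the adjusted threshold. The 6 B cell markers summed to 8782, 30292 and 24536 in D3TA and 62521, 61027 and 53123 in WT, and all 6 lay below 0. The 7 T cell markers, all below 0, summed to 3728 to 14176 in D3TA and 11495 to 16636 in WT. The 7 monocyte markers summed to 12394 to 14432 in D3TA and 7170.4 to 10061 in WT, with 6 of 7 above 0. The 9 basophil and mast cell markers summed to 847 to 1202 in D3TA and 391 to 538 in WT, with 8 of 9 above 0. Of the 9, 3 were higher and 0 lower at an unadjusted p under 0.05 by limma. At that threshold 5 of 6 B cell markers were lower and 3 of 7 monocyte markers higher. Of macrophage markers 1 of 8 was lower, and of eosinophil markers 2 of 6. The T cell, erythroid, megakaryocyte and progenitor lists had 0. Over all tested genes 6.08% were higher and 3.83% lower at that threshold, and 54.5% lay above 0. Ms4a2 and Fcer1a, both above 0, passed the filter through their D3TA libraries. Macrophage markers, 8 of 8 below 0, and eosinophil markers, 4 of 6 below 0, had sums that overlapped between the groups. The only markers of these lists at 0 in a library were Epx, Ms4a2 and Fcer1a, of eosinophils, basophils and mast cells, each in WT-2. The 8 erythroid markers summed to 298826 to 1153200 in D3TA and 243134 to 1255000 in WT, with 8 of 8 above 0. The 5 megakaryocyte markers, all above 0, and the 4 progenitor markers also overlapped in their sums. The markers with the highest mean level were Cd79a for B cells, at 5685 ± 2557 in D3TA and 19901 ± 2939 in WT, and Lck for T cells, at 2303 ± 1149 in D3TA and 3449 ± 552 in WT (n = 3 each, ± SD). Among myeloid cells they were Csf1r of monocytes, at 3720.2 ± 1363 in D3TA and 3965 ± 1273 in WT, Vcam1 of macrophages, at 7397 ± 1552 in D3TA and 10679.6 ± 2403 in WT, and Prg2 of eosinophils, at 707 ± 508 in D3TA and 1163 ± 1316 in WT. Prss34 of basophils averaged 339.5 ± 49.3 in D3TA and 85.2 ± 41.6 in WT, Pf4 of megakaryocytes 2081 ± 768 in D3TA and 1256 ± 530.3 in WT, and Kit of progenitors 571 ± 214 in D3TA and 354 ± 114 in WT. Hba-a1, of red cells, averaged 410853 ± 301181 in D3TA and 197725 ± 147829 in WT. Their part in the differences of the 10 genes was not tested.

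Differences were also read within libraries alike in the traits given above. Between D3TA-1 and D3TA-2 and the other library with a high hemoglobin share, WT-3, the 10 log2 differences ran from 1.58 to 7.74 with a median of 3.07. The highest, 7.74, is that of Mrgpra2b against a WT-3 value of 0, so its size rests on the added 1. Between D3TA-3 and the 2 WT libraries with a low share they ran from 0.61 to 4.20 with a median of 1.66, the highest being that of Mmp8, which was at 0 in WT-2. Between D3TA-3 and WT-1, the libraries with Y-linked transcripts, they ran from -0.16 for Cxcr2 to 2.56 for Ly6g, with a median of 0.99, and 9 of 10 lay above 0. Among the 4 libraries with few or no such transcripts all 10 lay above 0, with a median of 3.63, and Mmp8 and Mrgpra2b there again rest on WT values of 0.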

How the data were processed

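The 3 D3TA and 3 WT spleen libraries were grouped by the labels. Per the labels' protocols, mRNA was captured on poly-T beads and primed with random hexamers; strand was not stated. HISAT2, DESeq2, Trim Galore, FastQC and CASAVA, and the build mm10, are named in the submitters' processing notes. The counter and its annotation are not given in the sources used here. The deposited table, labelled raw counts, holds a signal, which its values show to be read counts already divided by the authors by 1 size factor for each library. All 120102 values above 0 were whole multiples of a library's step within 0.001 (100%), and dividing by the step gave reads for the count tests. Limits set by depth cover counting error only, because reads without molecular identifiers can be copies of 1 molecule.

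Genes with at least 10 in at least 3 libraries were fitted as log2(value + 1) with limma 3.58.1 (trend, robust) on genotype, adjusted by Benjamini-Hochberg at 0.05, 2-sided. limma-voom, edgeR 4.0.16 and DESeq2 1.42.0 on recovered reads, scalings, filters, pseudocounts of 0.5 and 5, terms for Y-linked reads and hemoglobin share, a replicate block and libraries left out were alternatives. The limma fit was tested on simulated data with a spread set in advance, which does not measure its power at the spread of these libraries. Symbols, lengths and coordinates are GENCODE M21 (24895 of 24906 identifiers matched). R 4.3.3 and Python 3.11.15 were used.

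The members and lists were chosen with earlier results of these data known. Named genes were the 10, Ccnd3, the 2 of each other list with the smallest p (for cell types the summed level and the marker with the highest mean), and the 5 genes most alike in profile; others are said to be named after their values were seen. The values of 1 listed gene are not reported here.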

Additional observations from a re-analysis of the deposited data

How the results depend on the processing

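The 10 genes kept a difference above 0 in all 239 values computed over 24 alternative settings (Mrgpra2b was not tested at a minimum of 50), the lowest being 0.54 (Cxcr2). The count of genes called over the whole table moved from 0 in the limma fit to 44 with no filter, 15 with a term for Y-linked reads, 11 with a term for the hemoglobin share and 472 with DESeq2. Of the 10, these called 1 (Mmp9), 2 (Wfdc21 and Ly6g), 0 and 6 (Mmp9, Padi4, Csf3r, Ltb4r1, Wfdc21 and Ly6g). With 1 library left out the counts ranged from 0 to 306 genes and from 0 to 8 of the 10; only leaving out D3TA-3 gave any, missing Mmp8 (adjusted p = 0.359) and Cxcr2 (adjusted p = 0.136). The cause was not tested. At an unadjusted p under 0.05, limma gave 1542 genes, limma-voom 1406 and edgeR 1606, with 0 adjusted calls from each; edgeR's adjusted p of the 10 ran from 0.0901 to 0.418. Mmp8 rested most on 1 library, with differences of 2.96 to 6.17 when 1 was left out.

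Same-numbered D3TA and WT libraries did not deviate together (correlations of -0.06, -0.005 and -0.13), and they were not treated as pairs. With 3 libraries a group this check cannot exclude a shared preparation. The replicate block called 0 genes and 0 of the 10. Library-size scaling moved the median of all genes to 0.14, against 0.06 in the limma fit, no filter to 0.18 and DESeq2 to 0.13. Other settings changed no direction of the 10. With 3 mice a group and a WT library short of low genes, differences of the genes near 0 (Mmp8, Mrgpra2b) are the least precise.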

Other observations

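Mmp9 and its main tissue inhibitor Timp1, a pair chosen after their values were seen, were set against each other within each library. The ratio of Mmp9 to Timp1 was 23.6, 27.6 and 8.46 in D3TA, against 5, 1.82 and 1.52 in WT. Each D3TA library lay above each WT library. Timp1 itself was at 129, 94.9 and 98.5 in D3TA and 72.6, 126 and 185 in WT, with overlapping groups.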
